A study of Mus musculus with 4 samples.

Results

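The genes described here are 51 cell cycle and DNA replication genes, taken by symbol from a table of 21958 genes measured by RNA sequencing of whole mouse ovaries. They fall by role into 13 DNA replication genes, 7 regulators of entry into S phase (the G1/S regulators), 5 genes for the D cyclins and their kinases, 3 inhibitors of cyclin-dependent kinases (CDK) and 23 mitotic genes. The study compared ovaries of ++Oxtr mice, which carry the genotype label tg, with WT ovaries, from females in diestrus, to look at how the oxytocin receptor bears on follicle development. There were 2 libraries per genotype, ++Oxtr replicates 3 and 4 and WT replicates 5 and 6. The labels used here give neither the promoter of the transgene nor the animals' age, and they do not say whether a library holds 1 animal or several. The extraction protocol names white adipose tissue, whereas source and tissue are given as ovary.

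Library totals were between 15229810 and 16517764 counts, and a single gene of the 51 had between 62 and 4463 counts in a library. Oxtr itself, the gene in the mice's name, had 109 and 161 CPM (counts scaled to library size) in ++Oxtr ovaries, against 29.2 and 55.5 CPM in WT ovaries. Its 2 ++Oxtr values lay above both WT values, a relation found in 14.5% of all genes. Ovarian markers were present in every library. A list of 12 granulosa cell markers summed to 5118 and 6651 CPM in ++Oxtr libraries, against 5336 and 7016 CPM in WT libraries, and a list of 15 oocyte markers summed to 1231 and 625 CPM, against 874 and 835 CPM. Markers of tissue next to or in the ovary were uneven. The 12 adipocyte markers summed to 2334 and 1668 CPM in ++Oxtr libraries, against 299 and 376 CPM in WT libraries. The 11 measured markers of oviduct epithelium summed to 132 and 3290 CPM, against 2664 and 1131 CPM, and the 10 luteal markers to 2676 and 2669 CPM, against 2438 and 10426 CPM. ++Oxtr replicate 3 therefore stood apart by its low oviduct signal and WT replicate 6 by its high luteal signal. The adipocyte signal differed between the genotypes, with 11 of the 12 markers higher in both ++Oxtr libraries than in both WT libraries. The same held for 8 of 8 endothelial markers, by smaller amounts. In whole ovaries, fewer cells of a type and less RNA per cell cannot be told apart.

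A cell that divides passes from G1 through DNA synthesis in S phase to mitosis. D cyclins with Cdk4 or Cdk6 start the passage by inactivating the retinoblastoma protein, which frees E2F factors to switch on the genes of DNA synthesis, and CDK inhibitors hold it back. Mitotic genes are switched on later, through Mybl2 and Foxm1. In the ovary the granulosa cells of growing follicles are the main dividing cells, luteal cells have left the cycle, and oocytes, arrested in meiosis, store transcripts of several mitotic genes.

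Promoter elements known for that timing were looked for. A few promoters are shown, picked after the search because their matches separate the roles that the expression data set side by side. A window from 250 bases before to 50 bases after each start site was searched on both strands for the E2F motif (TTTCCCGC, TTTCGCGC, TTTGCCGC or TTTGGCGC), the cell cycle homology region or CHR (TTTGAA or TTCGAA) and CCAAT. The windows come from RefSeq on build GRCm38.p6, where 39 of the 51 genes had an entry. In the stretches below, written 5′ to 3′ on the gene's own strand, capitals mark each match, read on either strand, so that ATTGG is CCAAT and TTCAAA is TTTGAA on the other strand.
Mcm5, chr8:75109349-75109508, plus strand: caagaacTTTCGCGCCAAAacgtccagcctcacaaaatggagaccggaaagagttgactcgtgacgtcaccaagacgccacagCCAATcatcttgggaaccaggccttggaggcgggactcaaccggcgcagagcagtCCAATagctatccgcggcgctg
Mcm6, chr1:128359706-128359820, minus strand: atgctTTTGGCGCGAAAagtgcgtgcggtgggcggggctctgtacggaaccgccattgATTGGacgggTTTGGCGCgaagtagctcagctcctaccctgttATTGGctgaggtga
Cdc25a, chr9:109875444-109875578, plus strand: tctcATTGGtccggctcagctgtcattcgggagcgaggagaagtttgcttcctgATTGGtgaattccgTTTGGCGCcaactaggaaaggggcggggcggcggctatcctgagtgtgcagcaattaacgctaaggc
Ccnb2, chr9:70421540-70421649, minus strand: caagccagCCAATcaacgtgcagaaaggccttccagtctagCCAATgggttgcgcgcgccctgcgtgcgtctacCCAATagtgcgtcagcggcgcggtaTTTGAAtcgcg
Cdc20, chr4:118437344-118437408, minus strand: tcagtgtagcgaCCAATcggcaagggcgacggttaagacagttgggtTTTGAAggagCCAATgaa
Kif11, chr19:37376322-37376381, plus strand: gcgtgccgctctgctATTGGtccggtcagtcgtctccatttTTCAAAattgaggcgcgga
Cdk1, chr10:69352913-69353047, minus strand: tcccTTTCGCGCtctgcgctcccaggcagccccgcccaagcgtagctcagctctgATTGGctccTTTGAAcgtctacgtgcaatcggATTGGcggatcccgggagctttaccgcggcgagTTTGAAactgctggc
Cdk4, chr10:127063435-127063534, plus strand: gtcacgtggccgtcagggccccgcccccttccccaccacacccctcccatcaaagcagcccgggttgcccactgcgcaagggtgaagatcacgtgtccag

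Mcm5 and Mcm6, subunits of the replicative helicase, each had a pair of E2F matches that overlap on opposite strands, the first at −153 from the start site in Mcm5 and at −110 in Mcm6. Mcm6 had a further E2F match at −47. In Cdc25a, the phosphatase that activates Cdk2, the single E2F match lay at −67. The mitotic promoters shown had another layout. Ccnb2, cyclin B2, held 3 CCAAT letters at −87, −54 and −21, each 33 bases from the next, and a CHR at 5 bases after the start, with a second CHR at −167, outside the stretch shown. Cdc20, an activator of the anaphase-promoting complex, had its CHR at −18 and Kif11, a motor of the spindle, at −19. Cdk1, the mitotic kinase, carried both kinds, with E2F at −131 and CHR at −71 and −15. The stretch shown for Cdk4 held none of the letters searched.

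Over the role lists, an E2F motif was found in 6 of 11 replication genes with an entry (54.5%: Mcm3, Mcm5, Mcm6, Mcm7, Cdc6 and Cdt1), 3 of 6 G1/S regulators (50%) and 1 of 17 mitotic genes (5.88%), beside 2.6% of the 27025 genes in the table. A CHR was found in 12 of 17 mitotic genes (70.6%) and 2 of 11 replication genes (18.2%), beside 21.7% of all genes. The same 12 mitotic genes also held a CCAAT, a combination present in 9.65% of all genes. Of the D cyclins and their kinases, 3 had an entry (Ccnd3, Cdk4 and Cdk6), and these windows held neither the E2F nor the CHR letters. Ccnd1 and Ccnd2 had no entry and were not searched. A match is a description of letters, not a site of binding.

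**Figure D1:**
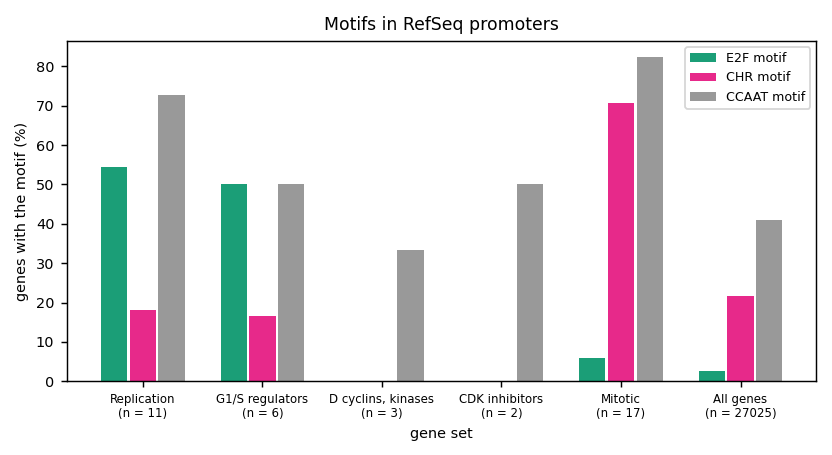
Share of genes (%, vertical axis) whose RefSeq promoter windows hold an E2F, CHR or CCAAT motif, by gene set (horizontal axis, with the number of genes that have an entry). The E2F bar is 54.5% for replication and 5.88% for mitotic genes, and the CHR bar is 18.2% for replication and 70.6% for mitotic genes.

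Set between the genotypes, the levels of these genes were close. None of the 51 was called higher or lower in ++Oxtr ovaries by edgeR's quasi-likelihood test at a Benjamini-Hochberg adjusted p under 0.05 over all 15311 genes tested (the smallest adjusted p was 1). The same test called 0.00% of all genes higher and 0.00% lower. At an unadjusted p under 0.05, 0 of the 51 were higher and 1, Cenpf, was lower, beside 2.12% of all genes higher and 0.451% lower. DESeq2 called 0.431% of all genes higher and 0.0196% lower, and 0 of the 51 in either direction. The genes that DESeq2 called higher included Oxtr (adjusted p = 0.00611) and 10 of the 12 adipocyte markers. In edgeR, Oxtr had a log2 difference of ++Oxtr over WT of 1.68 (unadjusted p = 0.0103) and was not called. All 51 genes passed the filter on low counts.

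The size of the differences was small as well as short of the threshold. Over the 51 genes the median log2 difference of ++Oxtr over WT was −0.04, against 0.00 over all genes. Of the 51, 15 were above 0 (29.4%) and 36 below, beside 49.2% of all genes above 0. The median size of the difference, sign aside, was 0.07 on the log2 scale, against 0.13 over all genes. For 45 of the 51 (88.2%) the 95% interval of the difference lay within a 2-fold change in either direction, which held for 61.8% of all genes. The other 6 intervals reached past it, so larger differences in those genes could not be told from none with 2 libraries a group. In all, 1 gene had both ++Oxtr libraries above both WT libraries, against 14.5% of all genes, and 7 had both below, against 11.7% of all genes.

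**Figure D2:**
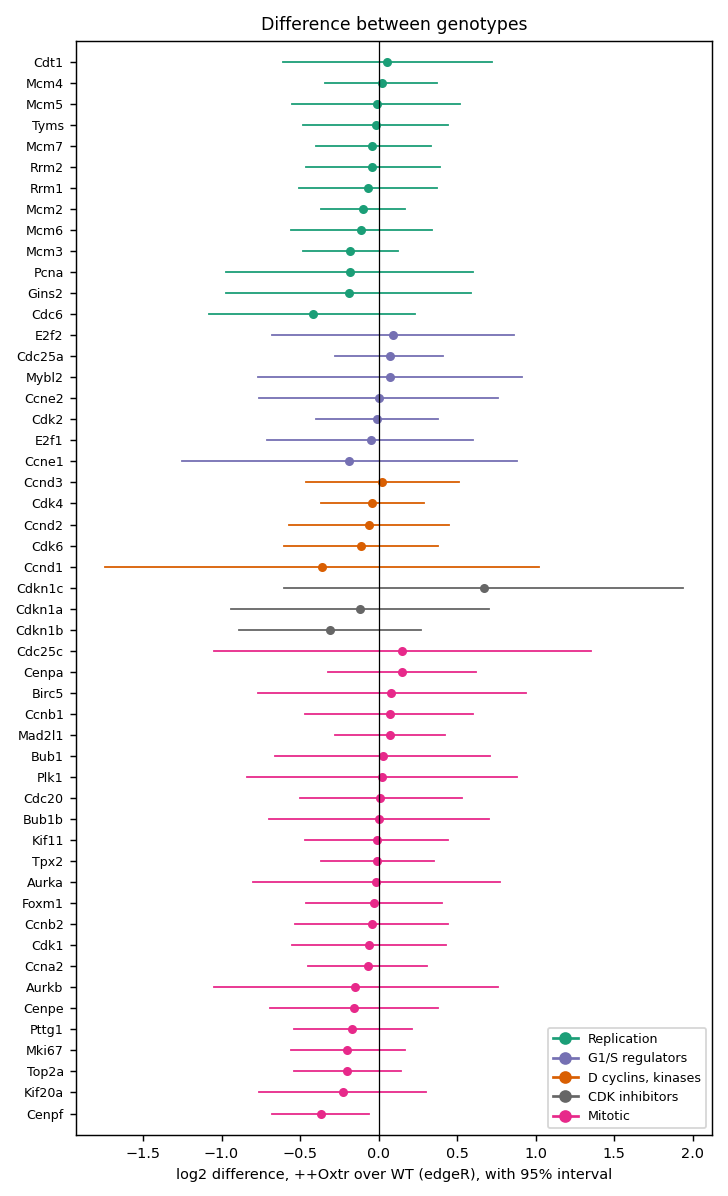
Log2 difference of ++Oxtr over WT ovaries (horizontal axis, edgeR estimate as point, 95% interval as line) for each of the 51 genes (vertical axis), coloured by role. The interval of Cenpf alone lies wholly below 0, and those of Cdkn1c and Ccnd1 are the widest among the D cyclins, kinases and inhibitors.

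The D cyclins are the sensors of growth signals, and Ccnd2 is the one known for granulosa cells. Ccnd2 had 195 and 206 CPM in ++Oxtr ovaries, against 243 and 175 CPM in WT ovaries, and Ccnd3 had 86.6 and 103 CPM, against 105 and 81.2 CPM. Both ++Oxtr values lay inside the WT range in each gene, and the log2 differences were −0.06 ± 0.19 (SE) for Ccnd2 and 0.02 ± 0.18 for Ccnd3. Ccnd1, the D cyclin found across many epithelial and stromal cells, had 20.3 and 55.6 CPM in ++Oxtr ovaries, against 54.4 and 43.1 CPM in WT ovaries. One ++Oxtr library was far below the other 3 and the other was the highest of all, so that the log2 difference of −0.36 ± 0.51 rested on a single library.

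The gap in Ccnd1 was within the ++Oxtr group. ++Oxtr replicate 3 had 0.364 times the level of ++Oxtr replicate 4 (95% counting interval 0.319 to 0.415). Without ++Oxtr replicate 4, the log2 difference of Ccnd1 became −1.27, with an adjusted p of 0.0220 in DESeq2 and 0.233 in edgeR, and without ++Oxtr replicate 3 it became 0.19, with an adjusted p of 1 in each. The same library had the lowest level of 11 of 11 oviduct epithelium markers, led by Ovgp1, the oviduct glycoprotein, at 15.9 CPM in ++Oxtr replicate 3 and 2576 CPM in ++Oxtr replicate 4, against 1974 and 582 CPM in WT ovaries. The part of those cells in the Ccnd1 level was not tested. LTO1, a gene on the opposite strand that shares 23.4% of the exon bases of Ccnd1, had 25.3 and 28.8 CPM in ++Oxtr ovaries, against 29.3 and 27.2 CPM in WT ovaries, and did not show the gap.

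The kinases that D cyclins activate differed little between genotypes. Cdk4 had the highest value in FPKM, the fragments scaled to gene length and library size, of the 51 genes, with a mean of 80.7 ± 6.38 FPKM over the 4 libraries (SD). It had 278 and 239 CPM in ++Oxtr ovaries, against 265 and 266 CPM in WT ovaries, a log2 difference of −0.04 ± 0.12. The 2 ++Oxtr values lay on either side of the WT pair. Tspan31, on the opposite strand, shares 19.7% of the exon bases of Cdk4, and reads in the shared bases cannot be told apart without the strand setting. Cdk6, the second D cyclin kinase, had 74.4 and 55.4 CPM in ++Oxtr ovaries, against 74.2 and 65.9 CPM in WT ovaries, a log2 difference of −0.11 ± 0.18. Its groups overlapped.

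On the FPKM scale, which allows genes of different length to be summed and compared, Ccnd2 made up 59.4% and 48.2% of D cyclin FPKM in ++Oxtr ovaries, against 52.3% and 50.2% in WT ovaries. The share of Ccnd1 was 12.3% in ++Oxtr replicate 3, against 23.4% and 24.8% in WT ovaries. Ccnd2 was thus the leading D cyclin in each library. In ++Oxtr replicate 4, Ccnd1 had 11.5 FPKM, close to the 11.8 FPKM of WT replicate 5, so its low share was seen in ++Oxtr replicate 3 alone.

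Of the CDK inhibitors, Cdkn1b, which encodes p27 and is known for the exit of luteal cells from the cycle, was the most abundant. It had 159 and 136 CPM in ++Oxtr ovaries, against 150 and 215 CPM in WT ovaries, a log2 difference of −0.31 ± 0.22. Cdkn1a, which encodes p21, a target of p53, had 26.6 and 27.5 CPM, against 21.7 and 37.2 CPM, a log2 difference of −0.12 ± 0.30. In both genes WT replicate 6 was the highest library and the groups overlapped.

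Cdkn1c is the imprinted gene of p57. It had 16.0 and 14.8 CPM in ++Oxtr ovaries, against 13.6 and 5.78 CPM in WT ovaries, with a log2 difference of 0.67 ± 0.47 (adjusted p = 1, edgeR). It was the 1 gene of the 51 whose ++Oxtr libraries both lay above the WT libraries, and most of the distance came from WT replicate 6: WT replicate 5 had 2.35 times the level of WT replicate 6 (95% counting interval 1.84 to 3.02). Without WT replicate 6 the log2 difference was 0.18, and without WT replicate 5 it was 1.41 with an adjusted p of 1. An antisense gene shares 30.7% of the exon bases of Cdkn1c. The strand setting of the counting is not given in the sources used here, so reads in the shared bases cannot be told apart.

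WT replicate 6 had the highest level of 9 of 9 tested luteal markers, led by Hsd3b1 and Cyp11a1, enzymes of steroid synthesis. Cyp11a1 had 553 and 411 CPM in ++Oxtr ovaries, against 253 and 3559 CPM in WT ovaries. Cdkn2b, the inhibitor p15 from the wider list of G1/S genes, followed the same library, with 2.33 and 4.47 CPM in ++Oxtr ovaries, against 4.88 and 26.8 CPM in WT ovaries. Its log2 difference of −2.22 ± 0.93 had an adjusted p of 1 in edgeR and 0.809 in DESeq2. Over the 3 CDK inhibitors of the 51, the median log2 difference was −0.12 and the mean 0.08, which differ in sign. The part of luteal cells in these levels was not tested.

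**Figure D3:**
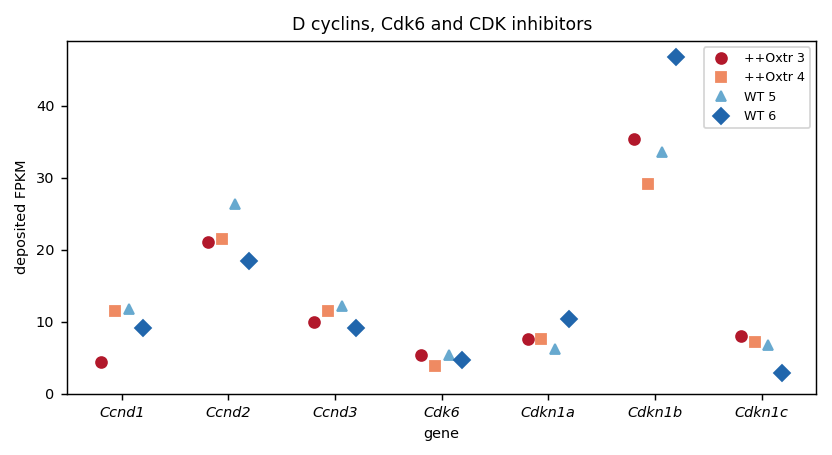
Deposited FPKM (vertical axis, from 0) of the 3 D cyclins, Cdk6 and the 3 CDK inhibitors (horizontal axis), 1 point per library, ++Oxtr left of WT. Ccnd1 is low in ++Oxtr replicate 3 alone (4.36 FPKM), and Cdkn1c is low (2.80 FPKM) and Cdkn1b high (46.8 FPKM) in WT replicate 6 alone.

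The 7 G1/S regulators had a median log2 difference of 0.00, from −0.19 to 0.09, and in none of them were the 2 genotypes apart. Cdk2, the partner of cyclins E and A, had 74.7 and 61.7 CPM in ++Oxtr ovaries, against 72.4 and 64.9 CPM in WT ovaries. E2f1, a transcription factor that drives S phase genes, had 23.9 and 18.2 CPM, against 24.1 and 19.5 CPM. Cdc25a had 50.3 and 43.9 CPM, against 44.8 and 45.2 CPM. In these 3 genes ++Oxtr replicate 3 was above ++Oxtr replicate 4 and the WT libraries lay between or near them.

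Ccne1, cyclin E1, gave the widest relative gap of the G1/S cyclins, with 7.12 and 4.14 CPM in ++Oxtr ovaries, against 6.54 and 6.28 CPM in WT ovaries (log2 difference −0.19 ± 0.39). E2f2, a second activating E2F, had 14.7 and 12.5 CPM, against 14.9 and 10.6 CPM. Mybl2, a part of the complex that activates mitotic genes, had 33.4 and 19.3 CPM, against 26.1 and 24.2 CPM. The ++Oxtr pair of Mybl2 spanned the WT pair, and so did that of Ccne1. Ccne2, cyclin E2, averaged 15.3 ± 3.06 CPM in ++Oxtr ovaries and 15.3 ± 2.96 CPM in WT ovaries (SD, n = 2 each).

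Of the 13 replication genes, 11 had a log2 difference below 0 and 2 above (15.4%), beside 49.2% of all genes above 0. The median of the list was −0.07 and its range −0.42 to 0.05. In 3 of the 13, Cdc6, Mcm2 and Mcm3, both ++Oxtr libraries lay below both WT libraries, a relation found in 11.7% of all genes. Mcm6 had 126 and 95.3 CPM in ++Oxtr ovaries, against 123 and 116 CPM in WT ovaries, a log2 difference of −0.11 ± 0.17. Mcm7, another helicase subunit, had 91.8 and 78.3 CPM, against 92.7 and 81.9 CPM, a log2 difference of −0.04 ± 0.14. Their groups overlapped, and the log2 differences of the 6 Mcm genes ran from −0.18 to 0.02.

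Pcna, the sliding clamp of DNA polymerase, had 65.2 and 37.2 CPM in ++Oxtr ovaries, against 59.2 and 57.2 CPM in WT ovaries. One ++Oxtr library was the highest of the 4 and the other was far the lowest, and the log2 difference was −0.18 ± 0.29. ++Oxtr replicate 3 had 1.75 times the level of ++Oxtr replicate 4 (95% counting interval 1.58 to 1.95), while the WT libraries were within counting error of each other (1.03, interval 0.945 to 1.13). Named pseudogene copies exist for Pcna and for Tyms, Ccnb1, Ccnb2 and Ccnd3, so a share of their reads may be placed elsewhere.

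Cdc6, which loads the helicase onto origins, had the largest difference of the replication genes, with 11.9 and 10.8 CPM in ++Oxtr ovaries, against 16.7 and 13.6 CPM in WT ovaries. All ++Oxtr values were below all WT values, and the log2 difference was −0.42 ± 0.24 (95% interval −1.08 to 0.23, adjusted p = 1, edgeR). Mcm3 had 65.5 and 59.6 CPM, against 73.8 and 67.9 CPM, a log2 difference of −0.18 ± 0.11. Mcm2 had 63.3 and 59.7 CPM, against 65.5 and 66.5 CPM, a log2 difference of −0.10 ± 0.10. The ++Oxtr values of Mcm2 and Mcm3 were lower without overlap, and their 95% intervals included 0.

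Gins2, part of the helicase complex, had 14.7 and 12.4 CPM in ++Oxtr ovaries, against 18.2 and 12.6 CPM in WT ovaries, and shares 67.3% of its exon bases with Gse1 on the opposite strand. Cdt1, which loads the helicase with Cdc6, was at 24.4 ± 4.72 CPM in ++Oxtr ovaries and 23.6 ± 4.33 CPM in WT ovaries (SD, n = 2 each), and Mcm4 at 67.4 ± 6.21 and 66.7 ± 6.65 CPM. Of the ribonucleotide reductase subunits, which make deoxynucleotides, Rrm1 was at 85.3 ± 15.2 CPM in ++Oxtr ovaries and 89.4 ± 6.18 CPM in WT ovaries, and Rrm2 at 30.1 ± 0.137 and 30.9 ± 3.14 CPM. Tyms, thymidylate synthase, was at 27.8 ± 2.89 CPM in ++Oxtr ovaries and 28.1 ± 1.82 CPM in WT ovaries, and Mcm5 at 59.6 ± 14.7 and 60.1 ± 0.945 CPM.

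The 23 mitotic genes had a median log2 difference of −0.02, from −0.37 to 0.15, with 8 above 0 (34.8%) and 15 below. Cenpf, a kinetochore protein made in G2 and mitosis, was the one gene of the 51 with an unadjusted p under 0.05. It had 56.9 and 54.4 CPM in ++Oxtr ovaries, against 76.3 and 67.3 CPM in WT ovaries, a log2 difference of −0.37 ± 0.11 (adjusted p = 1, edgeR). Each genotype's pair was close and the pairs did not overlap. Over the counting alternatives and left-out libraries its log2 difference lay between −0.46 and −0.28, and its adjusted p did not pass the threshold under edgeR or DESeq2.

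The proliferation genes Mki67, which encodes Ki-67, and Top2a, topoisomerase II alpha, had the highest CPM of the mitotic genes. Mki67 had 150 and 135 CPM in ++Oxtr ovaries, against 177 and 149 CPM in WT ovaries, a log2 difference of −0.20 ± 0.13. Top2a had 145 and 128 CPM, against 167 and 148 CPM, also −0.20 ± 0.13. The groups met almost exactly in Mki67, at 150 and 149 CPM, and did not overlap in Top2a. Kif20a, a kinesin of cytokinesis, had 15.5 and 17.2 CPM in ++Oxtr ovaries, against 18.8 and 19.7 CPM in WT ovaries, a log2 difference of −0.23 ± 0.20, and shares 29.3% of its exon bases with Cdc23. Pttg1, the securin that guards sister chromatids, had 33.9 and 31.3 CPM, against 37.7 and 35.6 CPM, a log2 difference of −0.17 ± 0.14. With Cenpf and Top2a, these were the 4 of 23 mitotic genes whose ++Oxtr libraries both lay below the WT libraries, a relation found in 11.7% of all genes.

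Cdc20 and Ccnb2 had the highest FPKM of the list, at 18.8 ± 2.54 and 18.3 ± 1.96 FPKM over the 4 libraries (SD). Cdc20 had 21.2 and 16.4 FPKM in ++Oxtr ovaries, against 20.7 and 16.8 FPKM in WT ovaries. Ccnb2 had 19.9 and 16.0 FPKM in ++Oxtr ovaries, against 19.9 and 17.4 FPKM in WT ovaries. In each the groups overlapped, and the log2 differences were 0.01 ± 0.19 and −0.04 ± 0.18. The cyclins Ccna2 and Ccnb1 and their kinase Cdk1 had log2 differences of −0.07 ± 0.14, 0.07 ± 0.20 and −0.06 ± 0.18.

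The spindle checkpoint genes Bub1, Bub1b and Mad2l1 had log2 differences of 0.03 ± 0.25, 0.00 ± 0.26 and 0.07 ± 0.13. Those of the mitotic kinases were −0.02 ± 0.29 for Aurka, −0.15 ± 0.33 for Aurkb and 0.02 ± 0.32 for Plk1, and that of Birc5, the survivin subunit of the Aurkb complex, was 0.08 ± 0.32. The centromere genes Cenpa and Cenpe were at 0.15 ± 0.17 and −0.16 ± 0.20, and the spindle genes Kif11 and Tpx2 each at −0.01, with SEs of 0.17 and 0.13. Foxm1, the transcription factor of mitotic genes, was at −0.03 ± 0.16, and Cdc25c, the phosphatase that activates Cdk1, at 0.15 ± 0.44, with the lowest FPKM of the 51 genes (1.27 ± 0.378 FPKM over the 4 libraries). In these genes the groups overlapped.

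Replication and mitotic genes kept nearly the same proportion in every library. The summed FPKM of the replication genes over that of the mitotic genes was 0.721 and 0.739 in ++Oxtr ovaries, against 0.741 and 0.747 in WT ovaries. The D cyclins did not keep to it. Their summed FPKM over that of the mitotic genes was 0.141 and 0.237 in ++Oxtr ovaries, against 0.206 and 0.171 in WT ovaries, and here the ++Oxtr pair lay on either side of the WT pair.

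The larger pattern in these genes ran between libraries of 1 genotype. ++Oxtr replicate 3 was above ++Oxtr replicate 4 in 46 of the 51 genes, a relation found in 50.3% of all genes. It was the highest of the 4 libraries in 30 of the 51, against 29.0% of all genes, and ++Oxtr replicate 4 was the lowest in 40 of the 51, against 25.4% of all genes. WT replicate 5 was above WT replicate 6 in 39 of the 51, against 52.5% of all genes. These counts were chosen after the values were seen and compare single libraries, so they have no replicate check. The 5 genes in which ++Oxtr replicate 4 was the higher of its pair were Ccnd1, Ccnd2, Ccnd3, Cdkn1a and Kif20a.

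**Figure D4:**
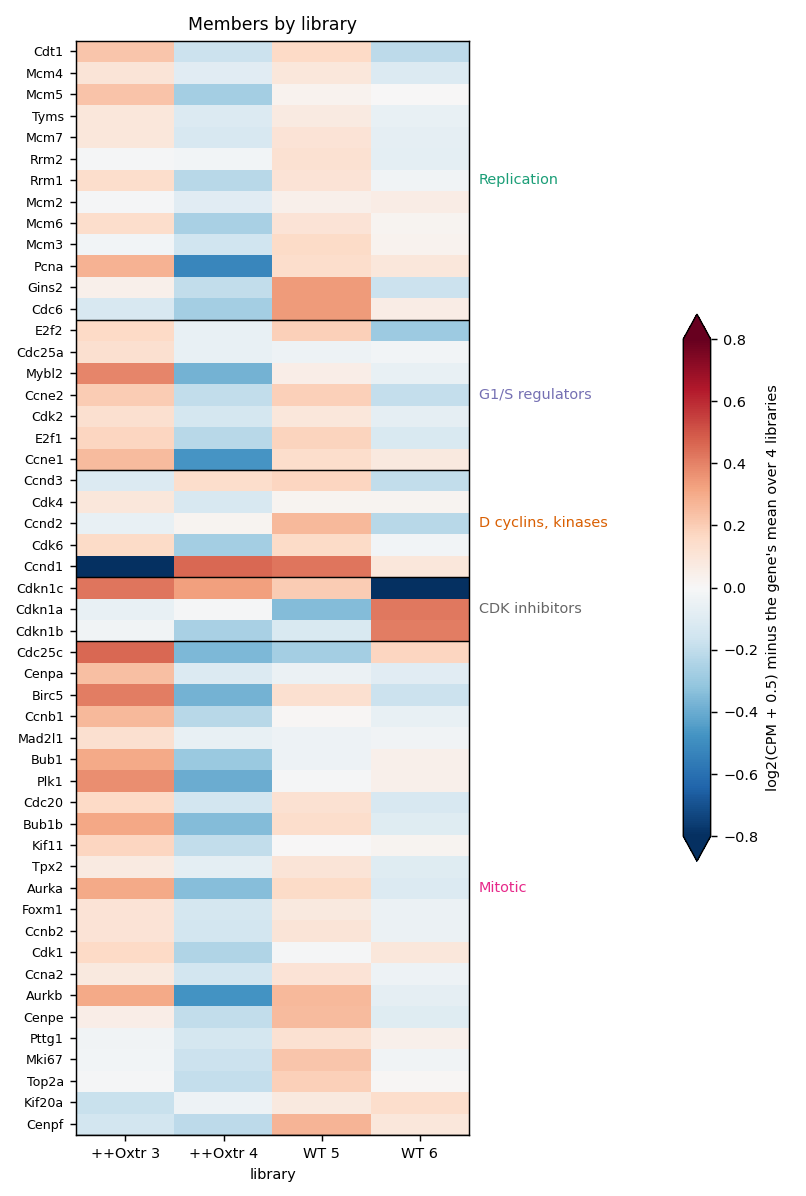
Each of the 51 genes (rows, grouped by role) in the 4 libraries (columns, ++Oxtr left of WT), coloured by log2(CPM + 0.5) minus the gene's mean over the 4 libraries; colours are capped at the ends of the scale. Most replication, G1/S and mitotic genes are red in ++Oxtr replicate 3 and blue in ++Oxtr replicate 4, while the D cyclins and CDK inhibitors follow other libraries.

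As the median over a list of log2(CPM + 0.5) minus each gene's mean over the 4 libraries, the mitotic genes stood at 0.16 and −0.20 in ++Oxtr replicates 3 and 4, against 0.10 and −0.04 in WT replicates 5 and 6. The replication genes stood at 0.09 and −0.17, against 0.11 and −0.03, and the G1/S regulators at 0.17 and −0.20, against 0.14 and −0.07. In the 3 lists ++Oxtr replicate 4 was lowest and WT replicate 6 next, with the other 2 libraries above. The D cyclins and their kinases stood at −0.06 and 0.02 in ++Oxtr libraries, against 0.17 and −0.02 in WT libraries, and the CDK inhibitors at −0.03 and −0.01, against −0.12 and 0.41. Over all genes the medians were between −0.01 and 0.01.

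The oocyte markers differed between the ++Oxtr libraries in the same direction and by more. All 15 were highest in ++Oxtr replicate 3 and lowest in ++Oxtr replicate 4. Their median log2 ratio of replicate 3 over replicate 4 was 1.0, against 0.32 for the mitotic genes, 0.39 for the G1/S regulators and 0.23 for the replication genes. Padi6, an oocyte protein, had 229 and 115 CPM in ++Oxtr ovaries, against 164 and 161 CPM in WT ovaries, and Nlrp14 had 196 and 111 CPM, against 141 and 123 CPM. Of 9 members with a known role in oocyte meiosis, 8 were highest in ++Oxtr replicate 3 and 9 lowest in ++Oxtr replicate 4, with a median log2 ratio of 0.40. Over all 51 genes those counts were 30 and 40, and over the 23 mitotic genes 15 and 21, beside 29.0% and 25.4% of all genes. The granulosa markers did not take that order as a list, since 6 of 12 were higher in ++Oxtr replicate 3 than in replicate 4. They were mixed, with 4 highest and 4 lowest in ++Oxtr replicate 3, and 3 highest and 3 lowest in ++Oxtr replicate 4. Amh, Amhr2 and Kitl were, like the oocyte markers, highest in ++Oxtr replicate 3 and lowest in ++Oxtr replicate 4. Inha, Inhba, Inhbb and Hsd17b1 were lowest in ++Oxtr replicate 3.

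The lymphocyte markers, too, were lowest in ++Oxtr replicate 4 and next lowest in WT replicate 6 by their median. All 12 lymphocyte markers tested were higher in ++Oxtr replicate 3 than in replicate 4, and 12 of 12 were higher in WT replicate 5 than in WT replicate 6. Their median deviations were 0.12 and −0.64 in ++Oxtr replicates 3 and 4, against 0.82 and −0.30 in WT replicates 5 and 6, whereas those of the oocyte markers in WT were 0.01 and −0.06. Lymphocyte markers were low, with Cd4, a T cell coreceptor, at 6.87 and 5.48 CPM in ++Oxtr ovaries, against 16.7 and 3.89 CPM in WT ovaries, and Lck, a T cell kinase, at 7.58 and 4.21 CPM, against 14.0 and 6.28 CPM. Of the 10 macrophage markers, 8 were higher in ++Oxtr replicate 3 than in replicate 4 and 9 in WT replicate 5 than in WT replicate 6, led by Lyz2, lysozyme, at 467 and 266 CPM in ++Oxtr ovaries, against 356 and 192 CPM in WT ovaries. Of the 12 adipocyte markers, 12 were higher in ++Oxtr replicate 3 than in replicate 4 and 6 in WT replicate 5 than in WT replicate 6. The part of oocytes, immune cells and adipocytes in the levels of the cell cycle genes was not tested.

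**Figure D5:**
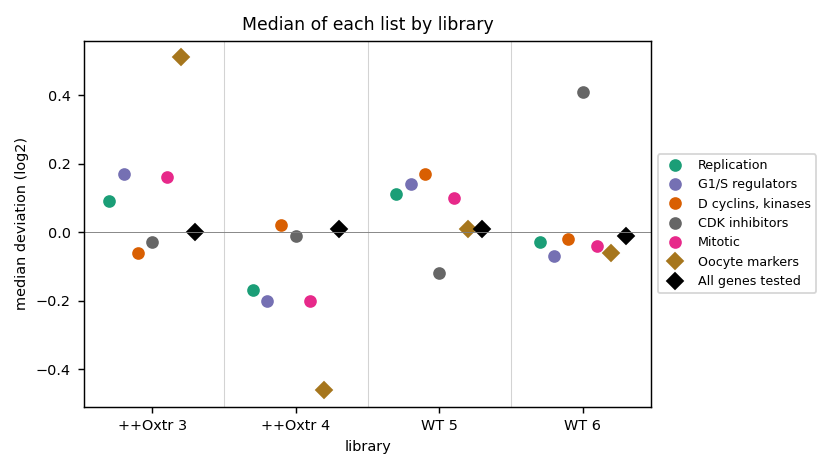
Median over each list (points) of the deviation from the gene's mean over the 4 libraries (vertical axis, log2) in each library (horizontal axis, ++Oxtr left of WT). Replication, G1/S and mitotic genes lie together in every library, oocyte markers reach 0.51 in ++Oxtr replicate 3 and −0.46 in ++Oxtr replicate 4, and CDK inhibitors reach 0.41 in WT replicate 6.

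In the wider pathway lists no gene passed the test either. Of 41 further replication genes tested, 32 G1/S genes and 58 mitotic genes, none was called in either direction by edgeR or DESeq2, and the medians of the log2 difference were 0.02, −0.01 and −0.02. At an unadjusted p under 0.05 in edgeR, 0 of each list were called. Pola1, the catalytic subunit of polymerase alpha, had 40.5 and 37.8 CPM in ++Oxtr ovaries, against 34.7 and 31.1 CPM in WT ovaries (log2 difference 0.25 ± 0.14), and Pole2, a polymerase epsilon subunit, had 7.64 and 5.34 CPM, against 7.08 and 8.35 CPM (−0.25 ± 0.34). Pola1 was higher without overlap, and Pole2 overlapped. Of the 41 replication genes, 3 were higher and 2 lower without overlap, beside 14.5% and 11.7% of all genes.

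Among the G1/S genes, Fbxw7, a ubiquitin ligase subunit that removes cyclin E, had 41.1 and 41.3 CPM in ++Oxtr ovaries, against 48.3 and 81.2 CPM in WT ovaries (log2 difference −0.65 ± 0.27), with the highest value again in WT replicate 6. Among the mitotic genes, Hmmr, a spindle protein, had 18.7 and 16.6 CPM, against 22.8 and 20.5 CPM, and Pbk, a mitotic kinase, had 21.4 and 16.9 CPM, against 23.7 and 23.4 CPM, each with a log2 difference of −0.30. Both were lower in ++Oxtr ovaries without overlap, and neither difference passed the test. Of the 58 mitotic genes, 4 were lower and 2 higher without overlap, beside 11.7% and 14.5% of all genes. Of the 32 G1/S genes, 9 were lower and 3 higher without overlap, beside the same shares of all genes. ++Oxtr replicate 3 was above ++Oxtr replicate 4 in 37 of 41 replication, 55 of 58 mitotic and 21 of 32 G1/S genes.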

How the data were processed

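RNA was sequenced from 4 mouse ovary libraries, 2 per genotype, prepared with a NEBNext Ultra II RNA kit per the labels' protocols. The authors deposited raw counts per gene and, beside them, FPKM values; the build mm10 is named per the submitters' processing notes, and the aligner, the counter and its strand setting were not stated. The deposited FPKM equal count over length and library total within 3.6e-05. The gene coordinates in the table matched GRCm38 for 2.35% of genes, so they are not printed.

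The genes and lists were chosen with earlier results of these data known. Counts were filtered with filterByExpr (minimum count 10), scaled by TMM and tested with edgeR 4.0.16's quasi-likelihood test in R 4.3.3, ++Oxtr over WT, with Benjamini-Hochberg adjustment over 15311 genes and a threshold of 0.05. The SE is the log2 difference over the square root of F. CPM are TMM-scaled. Counting intervals are exact binomial at 95% and cover counting error only. DESeq2 1.42.0 on the same genes, limma 3.58.1 (voom on counts, and trend on log2(FPKM + 1), with 0.1 as another pseudocount), other scalings and filters, and each library left out in turn were alternatives. With 2 against 2 libraries, an exact two-sided permutation test cannot go below 0.333, so list medians have no test. Scripts were tested on simulated data.

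Values were given in every library for the D cyclins, their kinases and the CDK inhibitors, and in each other role for the 3 genes with the highest mean FPKM, the 3 with the largest log2 difference and any called; Mcm2 and the library counts within a genotype were added after their values were seen. From the wider lists the 2 largest differences per list were named, and from marker lists the 2 genes of highest CPM where a list stands beside a result. The granulosa markers were instead named by their order over the libraries, after it was seen. The lymphocyte, macrophage and endothelial lists summed to 42.5 and 21.4, 1140 and 844, and 645 and 641 CPM in ++Oxtr libraries, against 79.6 and 26.6, 885 and 567, and 495 and 499 CPM in WT libraries. No label ties the replicates to separate animals, so a p-value reflects variation among 4 libraries that may be technical. The counts of 2 replicates were further apart than sampling alone gives, with a chi-square per degree of freedom of 43.1 for ++Oxtr and 41.4 for WT. Rows without a symbol (51) carry a gene ID and stayed in the fit. DESeq2 was first run on all rows, which also called none of the genes described. The promoter stretches were picked after the motif search. Exon overlaps come from GENCODE on GRCm38. Fen1 was not tested, at 0.259 to 0.377 CPM. Protein sequences were not used here.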

Additional observations from a re-analysis of the deposited data

How the results depend on the processing

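None of the 51 genes was called higher under any alternative run, and none lower except Ccnd1, by DESeq2 without ++Oxtr replicate 4, where the count was 1. Leaving libraries out of DESeq2 was added after the data were seen. Over all genes, edgeR called 0 higher and 0 lower; DESeq2 called 66 higher and 3 lower. Without 1 library, edgeR called 0 to 7 higher and 0 to 58 lower, with 7 and 58 without ++Oxtr replicate 4, and DESeq2 47 higher and 8 lower without ++Oxtr replicate 3, 57 and 421 without ++Oxtr replicate 4, 82 and 77 without WT replicate 5, and 44 and 2 without WT replicate 6. A group then has a single library, assumed to vary like the other group.

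Without 1 library the median log2 difference ran from −0.25 to 0.08 for replication genes, −0.27 to 0.16 for mitotic genes, −0.22 to 0.16 for G1/S regulators, −0.19 to −0.02 for D cyclins and their kinases and −0.47 to 0.18 for CDK inhibitors. The lowest value came without ++Oxtr replicate 3 for the first 3 lists, without WT replicate 6 for the D cyclins and without WT replicate 5 for the inhibitors. Between 7 and 20 of the 51 genes took the other sign without 1 library, and 0 to 2 under other scalings, filters and tests; a change of sign was counted apart and no gene whose difference exceeded its SE reversed. The 3 other scalings moved the median of all genes by −0.01. No paired analysis was possible because the genotypes share no replicate number. The results rest on 2 libraries a group with uneven tissue markers, and the lowest count of the 51 genes in a library was 62.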
